A study of Mus musculus with 13 samples.

Results

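The transcripts of 10 genes of the osteoclast differentiation pathway were followed in primary and spontaneously immortalized mouse embryonic fibroblasts (MEFs). They are Acp5, Dcstamp, Ocstamp, Ctsk, Mmp9, Tnfrsf11a, Oscar, Atp6v0d2, Nfatc1 and Calcr, and each was matched by symbol to 1 of the 55487 gene identifiers of the deposited count tables. These members were chosen by their place in that pathway after its genes had been seen to be lower in WT immortalized MEFs of the same libraries. Levels and differences between the 2 states are therefore a description, and the counts of calls given for these contrasts support nothing. The 13 libraries fall into 4 groups. There are 3 WT primary libraries (clones 3, 4 and 5), 3 WT immortalized libraries (the lines of the same clone numbers), 3 Prkd3-/- primary libraries (clones 13, 14 and 15) and 4 Prkd3-/- immortalized libraries (lines 13, 13a, 14 and 15). All cells were grown without an added immortalizing gene or drug. MEFs were kept in medium with 10% fetal calf serum. Senescent cultures were moved to 20% until colonies grew out, and for the WT lines the study's methods give a return to 10% afterwards, so a past exposure to more serum goes with the immortalized state. Strain and embryonic age are not given in the sources used here, and each immortalized library is 1 line that grew from surviving colonies.

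Osteoclasts are the bone-resorbing cells of the monocyte and macrophage lineage. Their precursors need CSF1, which acts on the receptor CSF1R, and RANKL (encoded by Tnfsf11), which acts on RANK (encoded by Tnfrsf11a) and is blocked by the decoy receptor osteoprotegerin (encoded by Tnfrsf11b). RANK signalling, together with receptors such as OSCAR that use adaptors with an ITAM motif, raises the transcription factor NFATc1. NFATc1 then turns on the genes for cell fusion, such as Dcstamp, Ocstamp and Atp6v0d2, and those for resorption, such as Acp5, Ctsk and Mmp9. Fibroblasts and osteoblasts supply CSF1, RANKL and osteoprotegerin, and they also express some members themselves, for example Ctsk, Mmp9 and Nfatc1.

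Library totals ranged from 55436367 to 90654323 counts in the WT libraries and from 35273408 to 100441756 counts in the Prkd3-/- libraries. A level of 3 counts, taken as the floor, lay between 0.0299 and 0.085 CPM per library, and it covers counting error only. CPM is the usual normalised read count, scaled to the library total, here with TMM factors over all 13 libraries. The targeted gene Prkd3, a protein kinase D, was still counted in the Prkd3-/- libraries, at 33.6 to 43.2 CPM in primary MEFs against 69.2 to 73.7 CPM in WT primary MEFs. The 3 WT primary libraries stood closer to each other than any other group. The chi-square per degree of freedom between pairs of them was 5.25 to 12.4, against 46.7 to 377 between pairs of Prkd3-/- primary libraries, so each pair still differed by more than sampling noise. All 3 WT primary libraries held both the X-inactivation transcript Xist (43.8 to 55.9 CPM) and the Y-linked Ddx3y (51.6 to 63.7 CPM), whereas the Prkd3-/- primary libraries held Ddx3y (61.8 to 85.5 CPM) with Xist at 0.0576 CPM or less. The labels name 1 clone for each library. Where the spread between WT primary libraries is small, it may not be the spread between embryos, and p-values measure only the spread between these libraries.

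Promoter sequence was used for 5 of the 10 members, in 8 windows of 300 bases that run from 250 bases before the start site (RefSeq, GRCm38.p6). No window was used for the other members, Dcstamp, Ocstamp, Mmp9, Atp6v0d2 and Nfatc1. The windows below belong to members whose levels came apart in single lines or between genotypes. They are printed 5′ to 3′ on the strand of the gene. Capitals mark every match on either strand to the core of the macrophage factor PU.1 (GAGGAA), the NFAT core (GGAAA), the AP-1 site (TGANTCA) or the MITF E-box (CATGTG), and where PU.1 and NFAT letters overlap they run on as 1 stretch. The Acp5 window is that of the most downstream of the 3 listed starts, chr9:22130549-22130848 (minus strand).
Acp5: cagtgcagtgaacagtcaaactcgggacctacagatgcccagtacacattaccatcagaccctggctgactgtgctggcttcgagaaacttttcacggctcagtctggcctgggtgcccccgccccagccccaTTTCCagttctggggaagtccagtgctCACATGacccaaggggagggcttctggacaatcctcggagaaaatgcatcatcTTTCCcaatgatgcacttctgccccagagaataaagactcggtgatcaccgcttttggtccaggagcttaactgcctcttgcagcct
The Oscar window is chr7:3616108-3616407 (minus strand).
Oscar: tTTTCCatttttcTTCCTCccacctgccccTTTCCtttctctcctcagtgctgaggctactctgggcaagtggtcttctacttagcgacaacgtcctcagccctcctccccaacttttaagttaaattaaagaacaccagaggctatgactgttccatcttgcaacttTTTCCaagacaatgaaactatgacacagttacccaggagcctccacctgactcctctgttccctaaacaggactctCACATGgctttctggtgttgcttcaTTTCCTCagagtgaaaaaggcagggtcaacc
The Ctsk window is chr3:95498960-95499259 (plus strand).
Ctsk: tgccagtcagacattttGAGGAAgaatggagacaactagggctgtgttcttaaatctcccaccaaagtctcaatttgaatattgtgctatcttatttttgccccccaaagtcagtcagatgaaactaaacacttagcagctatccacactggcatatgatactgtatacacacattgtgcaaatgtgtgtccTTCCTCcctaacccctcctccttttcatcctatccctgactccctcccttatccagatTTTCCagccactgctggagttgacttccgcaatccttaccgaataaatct
The Tnfrsf11a window is chr1:105780473-105780772 (plus strand).
Tnfrsf11a: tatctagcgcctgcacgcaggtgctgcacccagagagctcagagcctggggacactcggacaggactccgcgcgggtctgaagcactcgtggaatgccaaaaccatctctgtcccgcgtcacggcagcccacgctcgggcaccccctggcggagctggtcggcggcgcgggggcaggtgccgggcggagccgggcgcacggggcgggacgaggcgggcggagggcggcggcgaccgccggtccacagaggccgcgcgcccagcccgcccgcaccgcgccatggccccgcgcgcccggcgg

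The Tnfrsf11a window differed from the other 3 printed windows in composition. It held 43 CG dinucleotides and 76.7% G and C, whereas the Ctsk and Oscar windows held 2 CG dinucleotides each, with 43.7% and 47.3% G and C, and the median over all 32851 windows was 7 CG dinucleotides and 52.7% G and C. None of the 4 motifs occurred in the Tnfrsf11a window. The Calcr window chr6:3763574-3763873, not printed, also held none of the 4, with 29 CG dinucleotides and 70% G and C. The Calcr window chr6:3764664-3764963 held 1 NFAT core, 4 CG dinucleotides and 47.3% G and C. The Oscar window held 2 PU.1 cores, 4 NFAT cores and 1 MITF E-box, the last ending on the base before the start site. The Ctsk window held 2 PU.1 cores and 1 NFAT core, and the printed Acp5 window held 2 NFAT cores and 1 MITF E-box. The Acp5 windows not printed, chr9:22135697-22135996 and chr9:22131816-22132115, held 1 NFAT core each and none of the other motifs. These motifs are short. The PU.1 core was found in 28.3% of all windows, the NFAT core in 61.3%, the MITF E-box in 14.2% and the AP-1 site in 7.81%. A match is a string of letters and not a measured binding site.

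Levels per gene length differed widely among the members. In WT primary MEFs, Ctsk was the most abundant, at a mean of 24.1 FPKM (here the normalized CPM divided by the gene length in kilobases), followed by Mmp9 at 4.94, Nfatc1 at 4.75, Acp5 at 4.34, Tnfrsf11a at 3.03 and Atp6v0d2 at 1.06 FPKM. Oscar, Dcstamp, Ocstamp and Calcr lay far lower, at 0.167, 0.0955, 0.05 and 0.0376 FPKM. The genes for fusion proteins and for the calcitonin receptor were thus near the limit of detection even in primary MEFs, and those for the protease, the phosphatase, the receptor and the transcription factor were well measured.

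**Figure D1:**
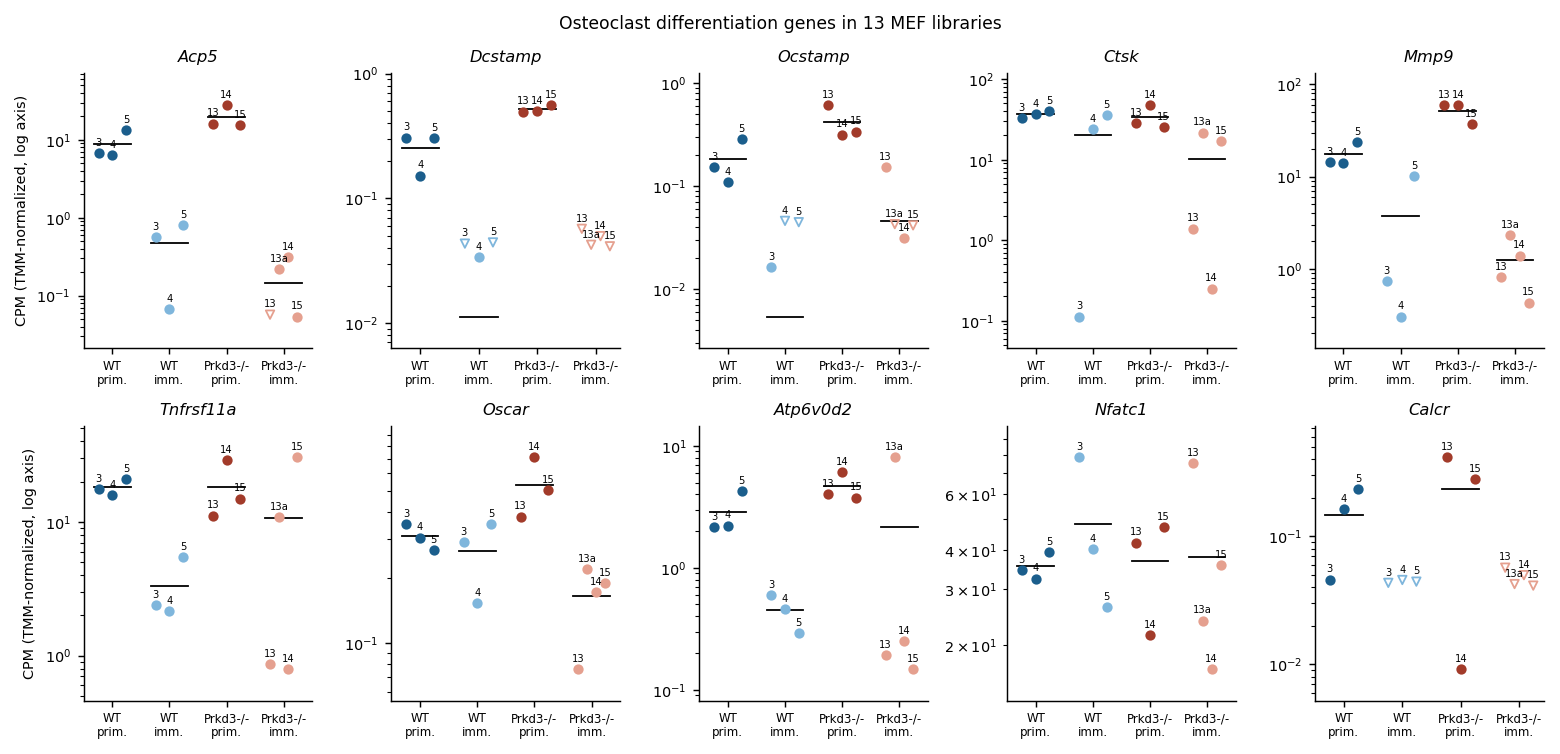
CPM of each of the 10 genes (log axis) in every library, by group on the x axis. Filled circles are libraries with their clone numbers, black bars are group means, and open triangles are libraries with 0 counts, drawn at the level of 3 counts. For 7 genes in WT and 6 in Prkd3-/- MEFs every primary library lay above every immortalized library, against 17.4% and 5.26% of all genes tested. The 7 include Ocstamp and Calcr, which were not tested between the WT states. The 6 leave out Calcr, where Prkd3-/- clone 14 had 1 count. Nfatc1 overlapped in all groups, and single lines stood at primary levels for Ctsk, Tnfrsf11a and Atp6v0d2.

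Among the resorption genes, Acp5, which encodes tartrate-resistant acid phosphatase, a secreted marker enzyme of osteoclasts, had the most uniform difference between states. Acp5 (chr9:22126727-22135711, minus strand) stood at 6.7, 6.38 and 13.3 CPM in WT primary clones 3, 4 and 5, and at 0.564, 0.0677 and 0.808 CPM in the lines from these clones. The Prkd3-/- values were 16.2, 28 and 15.5 CPM in primary clones 13, 14 and 15, and at 0 CPM in line 13, 0.219 CPM in line 13a, 0.313 CPM in line 14 and 0.054 CPM in line 15. No immortalized line came near a primary library. The mean was 18.3-fold lower in WT lines (Log2FC −4.18, SE 0.85) and 136-fold lower in Prkd3-/- lines (Log2FC −7.06, SE 1.04). Of the exon bases of Acp5, 6.75% are shared with 6530413G14Rik, a transcript on the opposite strand, and the WT counting took a pair for every gene it overlapped and ignored strand, so part of the count may belong to that transcript. The other 9 members shared no exon bases with another gene.

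Mmp9, the gene for gelatinase B, showed the same direction with 1 exception in size. Mmp9 (chr2:164940780-164955850, plus strand) was at 14.4, 14.1 and 23.9 CPM in the WT primary libraries and at 0.741 CPM in line 3, 0.305 CPM in line 4 and 10.2 CPM in line 5. Line 5 thus kept 58.3% of the primary mean, while lines 3 and 4 kept 4.24% and 1.74%. Mmp9 in Prkd3-/- MEFs was at 59.9, 59.4 and 37.1 CPM in the primary libraries and 0.821, 2.33, 1.39 and 0.432 CPM in lines 13, 13a, 14 and 15. The Log2FC between states was −2.22 (SE 1.26) in WT MEFs and −5.39 (SE 0.60) in Prkd3-/- MEFs, and without WT line 5 the WT value was −5.05.

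Ctsk encodes cathepsin K, the main collagen-degrading protease of osteoclasts. Ctsk (chr3:95499256-95509362, plus strand) was similar in all primary libraries, at 32.7, 36.6 and 40.2 CPM in WT clones and 28.5, 47.9 and 25.2 CPM in Prkd3-/- clones, and split the immortalized lines. WT lines 4 and 5 stood at 23.9 and 36.1 CPM and Prkd3-/- lines 13a and 15 at 21.7 and 17 CPM. WT line 3 stood at 0.113 CPM, Prkd3-/- line 13 at 1.39 CPM and Prkd3-/- line 14 at 0.25 CPM. Relative to the primary mean, the former kept between 50.3% and 98.9% and the latter between 0.309% and 4.12%. The Log2FC of the group means, −0.86 (SE 1.37) in WT and −1.75 (SE 1.21) in Prkd3-/- MEFs, describes neither set of lines.

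Tnfrsf11a encodes RANK, the receptor through which RANKL starts osteoclast formation. Tnfrsf11a (chr1:105780718-105847981, plus strand) was at 17.6, 15.9 and 21 CPM in WT primary libraries and at 2.4, 2.15 and 5.46 CPM in lines 3, 4 and 5, a Log2FC of −2.44 (SE 0.41). The Prkd3-/- primary libraries held 11.1, 29.1 and 14.9 CPM. The Prkd3-/- lines spread over a wider range, from 0.797 CPM in line 14 and 0.859 CPM in line 13 to 10.9 CPM in line 13a and 30.4 CPM in line 15, the highest Tnfrsf11a level of the 13 libraries. Lines 13 and 13a, which share a clone number, thus stood at 4.67% and 59% of the primary mean in Tnfrsf11a. The Log2FC between states was −0.79 (SE 1.19) in Prkd3-/- MEFs and −2.14 without line 15.

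Oscar, the gene for an immunoglobulin-like receptor that signals through an ITAM adaptor, was low in all libraries. Oscar (chr7:3609813-3616157, minus strand) had 15 to 28 counts in WT primary libraries and 9 to 23 counts in WT lines, or 0.268 to 0.353 CPM against 0.152 to 0.351 CPM, and the 2 WT states overlapped. In Prkd3-/- MEFs the primary libraries held 0.38 to 0.712 CPM and the lines 0.0763 to 0.219 CPM, without overlap.

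Nfatc1, the master transcription factor of osteoclast formation, did not move with the other members. Nfatc1 (chromosome 18, minus strand) was at 34.6, 32.4 and 39.3 CPM in the WT primary libraries and at 78.6, 40.1 and 26.3 CPM in WT lines 3, 4 and 5. Nfatc1 in Prkd3-/- MEFs was at 42.2, 21.4 and 47.2 CPM in primary libraries and at 75.3, 23.9, 16.8 and 35.7 CPM in lines 13, 13a, 14 and 15. All 4 groups overlapped. The Log2FC between states was 0.45 (SE 0.39) in WT and 0.02 (SE 0.53) in Prkd3-/- MEFs, and without WT line 3 the WT value was −0.09. The 2 lines with the highest Nfatc1 level, WT line 3 and Prkd3-/- line 13, were among the 3 lines with the lowest Ctsk level. Prkd3-/- line 14, also among these 3, had the lowest Nfatc1 level of all libraries, 16.8 CPM.

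The genes for cell fusion had few or no counts in the immortalized lines. Dcstamp (chr15:39745930-39760938, plus strand), whose product is a membrane protein needed for precursors to fuse, had 20, 14 and 17 counts in WT primary clones 3, 4 and 5, against 0, 2 and 0 counts in the lines from them. In Prkd3-/- MEFs Dcstamp had 43, 54 and 20 counts in primary clones 13, 14 and 15, or 0.496, 0.499 and 0.561 CPM, and 0 counts in all 4 lines, which is at least 9.06-fold lower when 3 counts per library are taken as the floor. Ocstamp (chr2:165393760-165400405, minus strand), which encodes a related fusion protein, had 10, 10 and 16 counts in WT primary clones and 1, 0 and 0 counts in the WT lines. Ocstamp in Prkd3-/- MEFs had 53, 34 and 12 counts in primary clones and 8, 0, 2 and 0 counts in lines 13, 13a, 14 and 15. Primary libraries lay above the lines of the same genotype for both fusion genes.

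Atp6v0d2, which encodes the osteoclast form of the d subunit of the proton pump and also acts in fusion, departed in a single line. Atp6v0d2 (chr4:19876841-19922605, minus strand) was at 2.15, 2.22 and 4.24 CPM in WT primary libraries and at 0.596, 0.457 and 0.29 CPM in WT lines 3, 4 and 5, with a Log2FC of −2.67 (SE 0.42). In Prkd3-/- MEFs the primary libraries held 4.04, 6.12 and 3.76 CPM, lines 13, 14 and 15 held 0.191, 0.25 and 0.148 CPM, and line 13a held 8.06 CPM, the highest level of Atp6v0d2 in any library. The Log2FC in Prkd3-/- MEFs was −1.10 (SE 1.40) with line 13a and −4.58 without it. Atp6v0d1, the form of the same subunit that most cells use, had means of 126 CPM in both primary groups, 140 CPM in WT lines and 142 CPM in Prkd3-/- lines, with line 13 lowest at 55.9 CPM. Per length, Atp6v0d2 was 1.14% to 2.18% of Atp6v0d1 in WT primary libraries, 0.142% to 0.362% in WT lines, 2.83% in Prkd3-/- line 13a and 0.064% to 0.225% in the other Prkd3-/- lines.

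Calcr encodes the calcitonin receptor, through which calcitonin restrains resorption. Calcr (chr6:3685680-3764714, minus strand) had 3, 15 and 13 counts in WT primary clones and 36, 1 and 10 counts in Prkd3-/- primary clones 13, 14 and 15. It had 0 counts in all 7 immortalized lines, at least 2.9-fold below the WT primary mean and at least 4.1-fold below the Prkd3-/- primary mean, with 3 counts per library as the floor. The single count in Prkd3-/- primary clone 14 came from the library with the largest total.

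**Figure D2:**
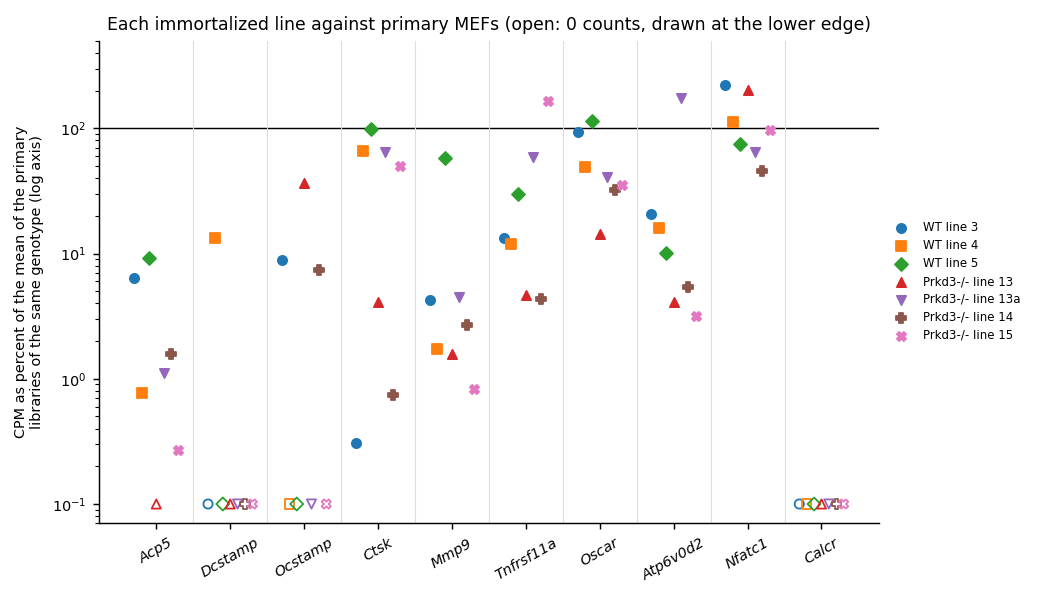
Level of each gene in each of the 7 immortalized lines as a percent of the mean of the primary libraries of the same genotype (log axis, the horizontal line marks 100%). Open symbols are lines with 0 counts. Acp5, Dcstamp and Calcr were low in all lines, Ctsk lay between 0.309% and 98.9%, and Atp6v0d2 in line 13a (174%) and Tnfrsf11a in line 15 (165%) lay above the primary mean.

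Each line had its own combination of members. In the Prkd3-/- lines, Calcr counts as below the primary libraries only by the 1 count of clone 14, which is under the floor. With Calcr included, Prkd3-/- line 14 had all 10 members below the range of the primary libraries of its genotype, and Prkd3-/- line 13 and WT line 4 had 9 below and Nfatc1 above. WT line 3 had 8 below, WT line 5 had 8 below and 2 within, and Prkd3-/- lines 13a and 15 had 8 below each, with Atp6v0d2 above in line 13a and Tnfrsf11a above in line 15. Lines that kept Ctsk did not keep Acp5. In WT line 5 and in Prkd3-/- lines 13a and 15, with Ctsk at 98.9%, 64.2% and 50.3% of the primary mean, Acp5 stood at 9.18%, 1.1% and 0.271%.

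A gene was called when the adjusted p-value of edgeR's quasi-likelihood test was below 0.01 with a |Log2FC| of 1 or more. By this rule 0 of the 8 members tested were called between the WT states, where 1.82% of all genes tested were called. At an unadjusted p-value under 0.05 the count was 4 of 8, against 19.7% of all genes. With the WT clone number as a replicate block, 0 genes were called in place of 361. DESeq2 called 6 members lower (Acp5, Atp6v0d2, Calcr, Dcstamp, Ocstamp and Tnfrsf11a), against 4.05% of all genes. Between the Prkd3-/- states edgeR called 0 of 9 members and 0% of all genes, 5 of 9 members had an unadjusted p-value under 0.05 against 6.56% of all genes, and DESeq2 called 3 (Acp5, Dcstamp and Mmp9) against 0.547%. Among the members tested, 5 of 8 had every WT line below every WT primary library, against 17.4% of all genes, and 6 of 9 had every Prkd3-/- line below every primary library, against 5.26%. The median Log2FC was −2.33 over the 8 WT members and 0.04 over all genes, and −1.75 over the 9 Prkd3-/- members and 0.07 over all genes, and the latter median of the members was the same with Dcstamp at its bound. Since these contrasts led to the choice of the members, nothing is read from these shares. For the difference of the state effect between genotypes, the interaction over 13 libraries, edgeR called 0 of 10 members and 0% of all genes at an adjusted p-value under 0.05, 4 members (Acp5, Dcstamp, Mmp9 and Oscar) had an unadjusted p-value under 0.05 against 3.97% of all genes, and DESeq2 called 0 against 0.101%.

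Between the states, macrophage markers had negative Log2FC values, as did most members but not Nfatc1. The summed level of 16 macrophage markers was 1711 to 1757 CPM in the WT primary libraries, 80.5 to 174 CPM in the WT lines, 192 to 2297 CPM in the Prkd3-/- primary libraries and 22.3 to 388 CPM in the Prkd3-/- lines. In the WT fit 9 of the 16 markers were called lower, against 349 of 19836 genes tested. In that fit 16 of 16 had a negative Log2FC, with a median of −4.13. In the Prkd3-/- fit 16 of 16 were negative, with a median of −3.27 and 0 called, against 0% of all genes. All 16 had a count in every primary library and every WT line. In Prkd3-/- line 13, 8 of them had 0 counts (Adgre1, C1qa, C1qc, Cx3cr1, Fcgr1, Mrc1, Ptprc and Tlr13). In bulk libraries fewer cells of a type and less RNA per cell cannot be told apart, and the part of macrophages in the level of any member was not tested. Csf1r is also among the ligands and receptors below. The summed level of 8 neutrophil markers was 0.976 CPM or less, that of 6 mast cell markers 1.15 CPM or less and that of 4 skeletal muscle progenitor markers 0.25 CPM or less in all libraries. The 6 endothelial markers summed to 11.6 to 16.4 CPM in WT primary libraries and 0.371 to 2 CPM in WT lines, with Tek called lower, and to 15.2 to 29 CPM in Prkd3-/- primary libraries and 1.55 to 17.6 CPM in Prkd3-/- lines. The 8 osteoblast markers summed to 178 to 186 CPM in WT primary libraries and 52.6 to 101.97 CPM in WT lines, without overlap, and to 34.8 to 132 CPM in Prkd3-/- primary libraries and 60 to 140 CPM in Prkd3-/- lines. The part of these cells in the members' levels was not tested. The 10 fibroblast markers summed to 19093 to 68104 CPM over all libraries, with 8 to 10 fibroblast markers at 1 CPM or more in each, as labelled.

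Members kept unequal proportions to the macrophage markers. Prkd3-/- primary clone 13 had a marker sum of 192 CPM, the lowest of the primary libraries, with 16.2 CPM of Acp5 and 59.9 CPM of Mmp9. Prkd3-/- line 13a had a higher marker sum, 388 CPM, with 0.219 CPM of Acp5, 2.33 CPM of Mmp9 and 0 counts of Dcstamp. For each 1000 CPM of the marker sum, Acp5 was at 3.66 to 7.79 CPM in WT primary libraries and at 84.3, 12.2 and 34.2 CPM in Prkd3-/- primary clones 13, 14 and 15. For Mmp9 the values were 8.1 to 14 CPM in WT primary libraries and 312, 25.9 and 82 CPM in the same Prkd3-/- clones. Clone 13, with the lowest sum, had the highest value for both genes, and clone 14, with the highest sum, the lowest of the 3 clones. In WT lines 3, 4 and 5 the values per 1000 CPM were 5.17, 0.841 and 4.64 CPM for Acp5, so that lines 3 and 5 lay within the range of the WT primary libraries, and 6.79, 3.78 and 58.5 CPM for Mmp9. In Prkd3-/- lines 13, 13a, 14 and 15 they were 0, 0.566, 14 and 1.33 CPM for Acp5, and 26.7, 6.01, 62.4 and 10.7 CPM for Mmp9. Line 14 thus lay above clone 14 in both genes. Its marker sum was only 22.3 CPM, with 4 of 16 markers at 1 CPM or more, against 16 in clone 14. Prkd3-/- lines 13 and 15 had 4 and 7 markers at that level, so the ratios of these lines rest on few markers. Tnfrsf11a was at 9.1 to 12.3 CPM per 1000 CPM of the sum in WT primary libraries, 58, 12.7 and 33 CPM in Prkd3-/- primary clones 13, 14 and 15, 22 to 31.3 CPM in WT lines, 27.9 to 35.7 CPM in Prkd3-/- lines 13, 13a and 14, and 752 CPM in Prkd3-/- line 15, where the marker sum was 40.5 CPM and Fcgr1 had 0 counts. Ctsk stood at 18.6 to 23.5 CPM per 1000 CPM of the sum in WT primary libraries and at 148, 20.9 and 55.7 CPM in Prkd3-/- primary clones 13, 14 and 15. Among the lines it was at 1.03, 297 and 207 CPM in WT lines 3, 4 and 5 and at 45.3, 56.1, 11.2 and 420 CPM in Prkd3-/- lines 13, 13a, 14 and 15.

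**Figure D3:**
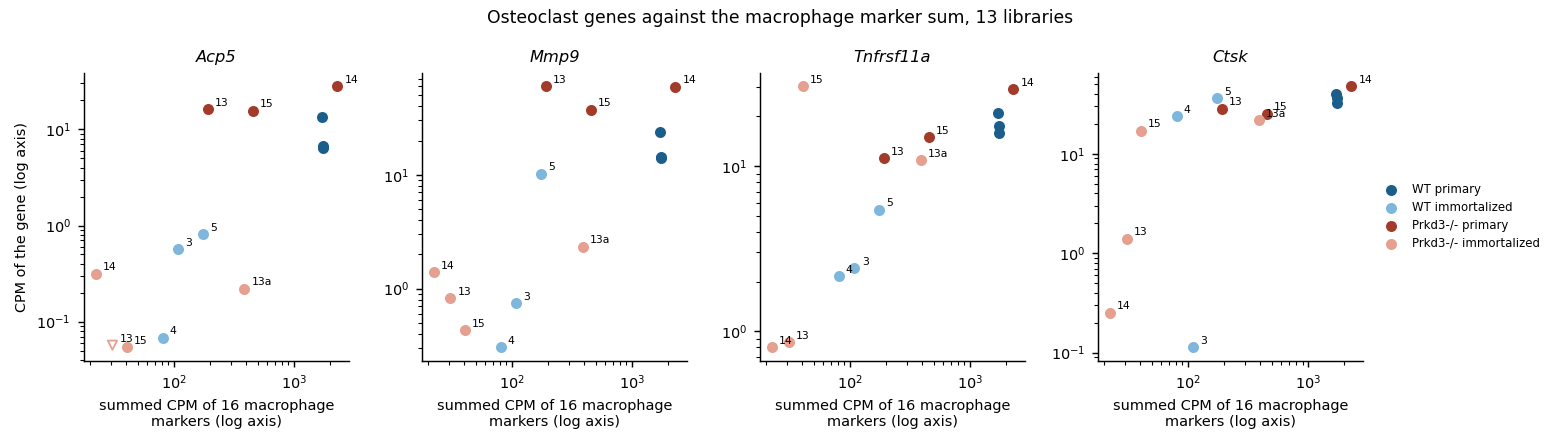
CPM of Acp5, Mmp9, Tnfrsf11a and Ctsk (y, log axis) against the summed CPM of 16 macrophage markers (x, log axis) in 13 libraries, coloured by group, with clone numbers except for WT primary libraries. The open triangle is a library with 0 counts, drawn at the level of 3 counts. Prkd3-/- primary clones 13 and 15 lie above the WT primary libraries in Acp5 and Mmp9 at lower marker sums, and Prkd3-/- line 15 holds the highest Tnfrsf11a level at a sum of 40.5 CPM.

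Over the 6 primary libraries, Pearson's r of the log2 level with the log2 marker sum was 0.83 for Tnfrsf11a and 0.79 for Ctsk (Spearman's rho 0.83 and 0.71), and −0.22 for Acp5 and −0.52 for Mmp9 (rho −0.09 and −0.37). It was −0.72 for Ocstamp, −0.72 for Calcr, −0.68 for Nfatc1 and −0.52 for Dcstamp. In the same order rho was −0.60, −1, −0.89 and −0.14. For Atp6v0d2 and Oscar r was −0.13 and −0.03 (rho 0.03 and 0.14). Over the 7 immortalized libraries r was 0.81 for Atp6v0d2 (rho 0.75), 0.61 for Oscar (rho 0.71), 0.49 for Acp5 (rho 0.46), 0.48 for Mmp9 (rho 0.36), 0.47 for Ctsk (rho 0.50) and 0.46 for Tnfrsf11a (rho 0.64). For Dcstamp r was 0.02 (rho 0), for Nfatc1 −0.10 (rho 0) and for Ocstamp −0.61 (rho −0.67). These are descriptions over libraries that also share a table and a genotype. Without the 2 libraries farthest from the median sum, Prkd3-/- primary clones 13 and 15, r over the primary libraries became 0.84 for Acp5 and 0.90 for Mmp9. It became 0.98 for Oscar, 0.74 for Atp6v0d2, 0.73 for Dcstamp and 0.56 for Ocstamp. The negative values of these genes thus rest on those clones. For Nfatc1 and Calcr r stayed negative, at −0.97 and −0.86. The libraries left were the 3 WT ones, with sums of 1711 to 1757 CPM, and Prkd3-/- clone 14 at 2297 CPM. The r values without clones 13 and 15 thus rest largely on clone 14. In the immortalized libraries, without Prkd3-/- lines 13a and 14, r became 0.94 for Acp5, 0.87 for Oscar, 0.66 for Atp6v0d2, 0.62 for Mmp9, 0.11 for Ctsk and 0.03 for Tnfrsf11a. For Dcstamp, Nfatc1 and Ocstamp it became 0.09, −0.41 and −0.58.

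The comparison of genotypes within primary MEFs was not used in choosing the members, although the libraries of the 2 genotypes were deposited in separate tables, so genotype, table and the Xist difference given above cannot be told apart. In this comparison 9 of the 10 members had a positive Log2FC, with a median of 0.77, against 0.01 over all genes. Mmp9 differed most, at 52.1 ± 13 CPM (SD, n = 3) in Prkd3-/- and 17.5 ± 5.55 CPM (n = 3) in WT primary MEFs, a Log2FC of 1.60 (SE 0.28) with an adjusted p-value of 0.0325 by edgeR, which did not reach 0.01. All 3 Prkd3-/- libraries lay above all 3 WT libraries. DESeq2 called Mmp9, as 1 of 10 members against 2.48% of all genes. When single libraries were dropped, the Log2FC of Mmp9 was 1.45 to 1.88 and its edgeR adjusted p-value 0.0287 to 0.164. In the joint edgeR fit of 13 libraries the adjusted p-value was 0.997.

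Acp5 was at 19.9 ± 7.04 CPM in Prkd3-/- and 8.8 ± 3.93 CPM in WT primary MEFs (n = 3 each), a Log2FC of 1.20 (SE 0.38, edgeR adjusted p-value 0.122). The fusion genes Ocstamp and Dcstamp had Log2FC values of 1.27 (SE 0.47, adjusted p-value 0.170) and 1.06 (SE 0.34, adjusted p-value 0.125). Oscar had a Log2FC of 0.81 (SE 0.32, adjusted p-value 0.194). For these 5 genes, Mmp9, Acp5, Ocstamp, Dcstamp and Oscar, every Prkd3-/- primary library was above every WT primary library, 5 of 10 members against 15.5% of all genes. The same 5 had an unadjusted p-value under 0.05, against 24.1% of all genes. edgeR called 0 of the 10 at an adjusted p-value under 0.01, against 0.765% of all genes. Atp6v0d2 had a Log2FC of 0.72 (SE 0.34, adjusted p-value 0.252), with overlap between the genotypes, and Calcr one of 0.64 (SE 1.09, adjusted p-value 0.766). Tnfrsf11a (Log2FC 0.04, SE 0.36), Nfatc1 (0.08, SE 0.29) and Ctsk (−0.09, SE 0.25) were near 0 with overlapping libraries.

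Markers of other cells moved in the same comparison. Fibroblast markers had a median Log2FC of −0.84, with 8 of 10 negative. Of these 10, 1 was called lower (Pdgfrb, Log2FC −1.16, SE 0.10, edgeR adjusted p-value 0.00399), against 109 of 20403 genes tested. Osteoblast markers summed to 178 to 186 CPM in WT and 34.8 to 132 CPM in Prkd3-/- primary libraries. The macrophage markers pointed the other way from the members. Of the 16 markers, 14 had a negative Log2FC, with a median of −0.78 and 0 called. Clones 13 and 15 held sums of 192 and 452 CPM and clone 14 one of 2297 CPM. The part of these cells in the difference between genotypes was not tested. Prkd3-/- primary clone 14 stood apart from clones 13 and 15 in the whole transcriptome too. Without it the fit called 1456 genes in place of 156, but 0 members. At an adjusted p-value under 0.05 it held 4 of 10 members in place of 1, and 6565 of all 20428 genes in place of 1233 of 20403. In that fit Tnfrsf11a had a Log2FC of −0.48 and Ctsk one of −0.43, in place of values near 0, while Acp5 was at 0.87 and Ocstamp at 1.51.

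**Figure D4:**
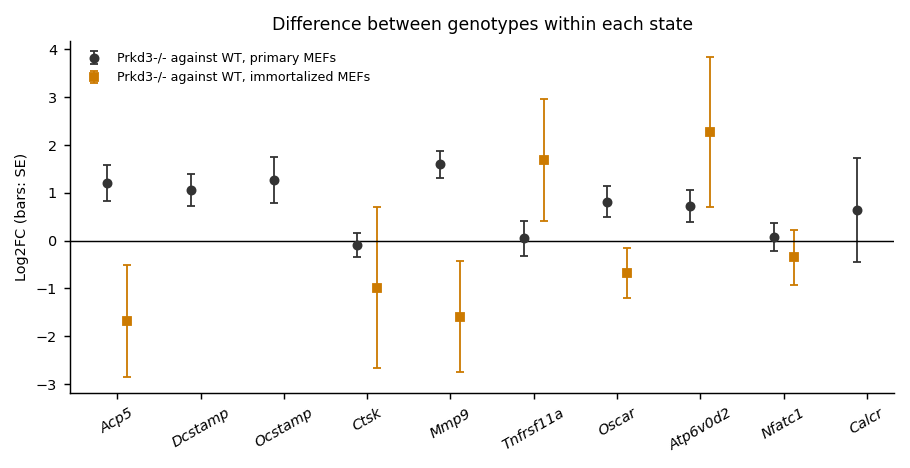
Log2FC of each gene between Prkd3-/- and WT MEFs (bars, SE), circles for primary MEFs (3 libraries each) and squares for immortalized lines (4 against 3). Genes with no square were not tested in that comparison. Mmp9 has the largest Log2FC among primary MEFs (1.60), and the bars of the immortalized comparison are wider, with SE values up to 1.69.

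Between the genotypes of immortalized lines no member stood apart. edgeR called 0 of the 7 members tested, against 0.0406% of all genes, 0 had an unadjusted p-value under 0.05 against 6.88%, and DESeq2 called 0 against 0.517%. The Log2FC was 2.28 (SE 1.57) for Atp6v0d2, 1.69 (SE 1.28) for Tnfrsf11a, −0.35 (SE 0.58) for Nfatc1, −0.67 (SE 0.52) for Oscar, −0.99 (SE 1.69) for Ctsk, −1.59 (SE 1.16) for Mmp9 and −1.69 (SE 1.17) for Acp5. The libraries of the 2 genotypes overlapped for every member. The sign of Atp6v0d2 rested on line 13a, without which its Log2FC was −1.18, and that of Mmp9 on WT line 5, without which it was 1.22.

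The order of the 4 groups by mean level was the same for Acp5, Dcstamp, Mmp9 and Oscar, namely Prkd3-/- primary, WT primary, WT lines and Prkd3-/- lines. For Acp5, Dcstamp and Mmp9 the first 3 groups did not overlap with their neighbours and the WT and Prkd3-/- lines did. Ctsk, Tnfrsf11a, Atp6v0d2 and Nfatc1 had no pair of neighbouring groups without overlap. Ocstamp and Oscar were separate only between Prkd3-/- and WT primary libraries among neighbouring groups, and Calcr only between WT primary libraries and the lines.

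The ligands, receptors and decoys of the pathway had Log2FC values of both signs between states. Of the 14, 9 had a negative Log2FC in each genotype. Between the WT states 2 were called lower and 0 higher, against 349 and 12 of 19836 genes tested, with a median Log2FC of −0.15. Every WT line was below every WT primary library for 5 of the 14, against 17.4% of all genes, and above for 1, against 2754 of 19836 genes. The 2 called genes were Csf1r and Sema4d. Csf1r, the receptor for CSF1, had a Log2FC of −3.60 (SE 0.23, edgeR adjusted p-value 0.00129). Sema4d, a semaphorin that osteoclasts secrete, had one of −4.01 (SE 0.17, edgeR adjusted p-value 0.000356). With the replicate block neither was called, as for the genes called between the WT states in the lists that follow. Csf1 itself, which fibroblasts make, was at 395 ± 19.9 CPM in WT primary and 483 ± 131 CPM in WT immortalized MEFs (n = 3 each) and at 428 ± 146 CPM (n = 3) and 502 ± 209 CPM (n = 4) in the Prkd3-/- groups. Tnfsf11, the gene for RANKL, was at 2.97, 3.33 and 3.16 CPM in the WT primary libraries and varied in the WT lines from 0.474 CPM in line 4 and 1.77 CPM in line 3 to 27.8 CPM in line 5. In Prkd3-/- MEFs Tnfsf11 was at 11.4, 5.56 and 14.9 CPM in primary libraries and at 7.75, 7.01, 4.35 and 0.189 CPM in lines 13, 13a, 14 and 15. The Prkd3-/- primary libraries were all above the WT primary libraries in Tnfsf11, with a Log2FC of 1.76 (SE 0.35, edgeR adjusted p-value 0.0424). Tnfrsf11b, the gene for osteoprotegerin, had the same mean of 32.6 CPM in both WT states, and 25.4 and 37.6 CPM in the Prkd3-/- states. The ratio of Tnfsf11 to Tnfrsf11b CPM was 0.0855 to 0.12 in WT primary libraries and 0.0514, 0.012 and 1.16 in WT lines 3, 4 and 5. It was 0.158 to 0.724 in Prkd3-/- primary libraries, 0.184 to 0.264 in Prkd3-/- lines 13, 13a and 14, and 0.00337 in line 15, which had the highest RANK level. Tnf, a cytokine that promotes osteoclast formation, was at 3.11 to 4.57 CPM in WT primary libraries and at 0.961 CPM or less in WT lines, with a Log2FC of −3.12 (SE 0.77, adjusted p-value 0.0925) that was not called. Tnfrsf1a, Efnb2 and Wnt5a, the other most abundant genes of this list, were not called in any comparison.

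**Figure D5:**
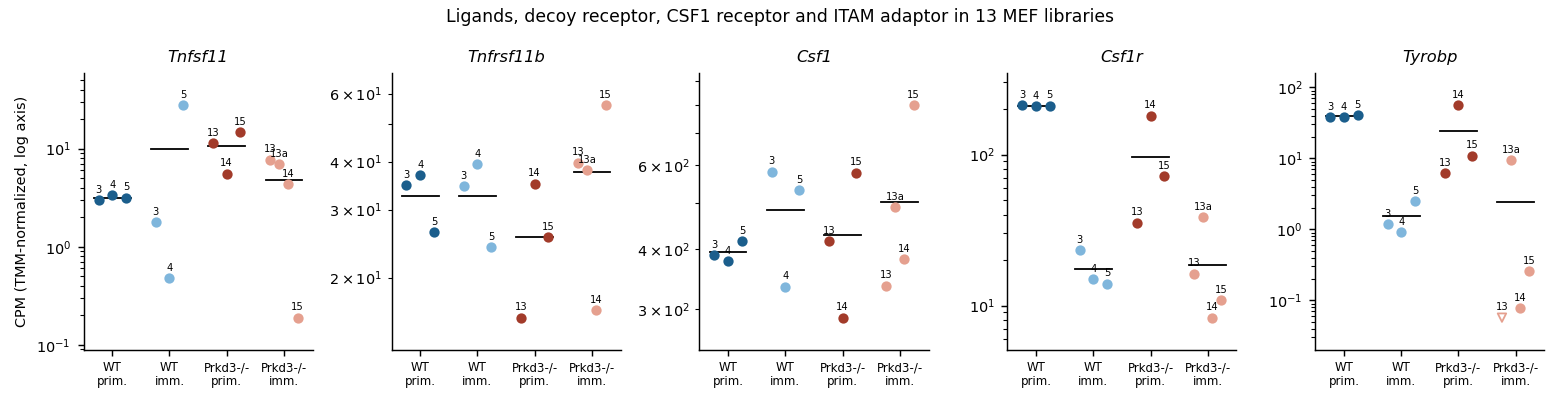
CPM (log axis) of Tnfsf11 (RANKL), Tnfrsf11b (osteoprotegerin), Csf1, Csf1r and Tyrobp in 13 libraries by group, drawn as in the plot of the 10 genes. Csf1r and Tyrobp fall with immortalization in WT MEFs, while Csf1 and Tnfrsf11b overlap between the states and Tnfsf11 ranges from 0.189 to 27.8 CPM over the lines.

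Of the 30 genes of RANK and ITAM signalling, 4 were called lower and 0 higher between the WT states, with a median Log2FC of −0.08. Over all 19836 genes tested, 349 were called lower and 12 higher. Every WT line was below every WT primary library for 11 of the 30 and above for 5, against 3445 and 2754 of all genes. The 4 called genes were Tyrobp, the ITAM adaptor of osteoclasts and macrophages (Log2FC −4.65, SE 0.43, adjusted p-value 0.00442), Trem2, a receptor that signals through it (−4.31, SE 0.38), Btk, a cytoplasmic tyrosine kinase (−5.06, SE 0.52), and Pirb, an inhibitory receptor (−4.65, SE 0.49). The most abundant genes of this list, which many cell types use, were not called. These were Sqstm1, Map3k7 and the calcineurin subunits Ppp3ca and Ppp3r1, the last at 140 to 146 CPM in WT primary libraries and 138 to 154 CPM in WT lines. Of 19 transcription factors and repressors, 3 were called lower and 0 higher, with a median of −0.09. Every WT line was below every WT primary library for 9 of the 19 and above for 1. The 3 called genes were Irf8, a repressor of osteoclast formation that macrophages express (−5.25, SE 0.43), Nfatc2 (−3.81, SE 0.35) and Mef2c (−2.31, SE 0.22). Spi1, the gene for PU.1, went from 29.9 to 34.6 CPM in WT primary libraries to 0.532 to 3.05 CPM in WT lines, with an adjusted p-value of 0.0248. Fosl2, Jund, Junb and Zeb1, the most abundant of the list, were not called. Of 28 genes for fusion, adhesion and resorption, 1 was called lower, the metalloproteinase gene Adam8 (−4.74, SE 0.18, adjusted p-value 0.0003), and 0 higher, with a median of 0.02. Every WT line was below every WT primary library for 7 of the 28 and above for 3. Ctsd, Ctsb, Mmp14 and Sh3pxd2a, the most abundant genes of this list, were not called. Among the called genes that macrophages also express are Csf1r, Tyrobp, Trem2, Btk, Pirb and Irf8. The other called genes were not assessed for this. In the other comparisons 0 genes of the 4 lists were called. The medians in primary MEFs of the 2 genotypes were −0.16, −0.11, −0.07 and −0.11 for the lists in the order given, against 0.77 for the members and 0.01 for all genes.

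Genes with a pattern like that of a member were ranked by Pearson's r of log2 CPM over the 13 libraries, which share state, table and depth. Acp5 was most like 6530413G14Rik (r 0.99), which shares its exon bases, followed by Gm21969 (0.98) and Guca1a (0.96). Mmp9 was also most like 6530413G14Rik (0.96), followed by A830029E22Rik (0.93) and by Acp5 (0.92). Ctsk was most like Atp6v0e2 (0.95), 2810032G03Rik (0.92) and Tmtc2 (0.92), and Tnfrsf11a most like Kctd16 (0.95), Rbm47 (0.94) and Gstm4 (0.93). Nfatc1 was most like Fam120a (0.96), Rbm6-ps1 (0.94) and Ralgapb (0.93). The genes most like Atp6v0d2 were Nup62cl, Pak7 and Vwc2 (0.93 each), those most like Oscar were Ankk1 (0.90), Nnat (0.89) and Casp6 (0.89), and those most like Ocstamp were Gldn (0.95), AC125456.1 (0.93) and Rab8b (0.93). For Dcstamp (Adcyap1 0.98, Hmx1 0.96, Htr5b 0.93) and Calcr (Myh2 0.97, Myhas 0.96, Gm20383 0.96) the likeness rests on genes that share libraries at 0 counts.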

How the data were processed

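Poly-A RNA of 13 MEF libraries was sequenced in pairs. The deposited values are raw gene counts, in 2 tables that the authors made, 1 for each genotype. Per the file headers and the submitters' processing notes, pairs were mapped to mm10 with STAR 2.7.10a and counted with featureCounts (Subread 2.0.6) on Ensembl GRCm38 genes, without strand and for every gene overlapped. The table labelled Prkd3-/- carries no command line, so its counting options are not given in the sources used here. Both tables were joined by gene identifier, and 55141 of 55487 identifiers had a symbol.

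Each comparison was fitted on its own libraries with edgeR 4.0.16 (quasi-likelihood test, TMM, filterByExpr, robust estimation) in R 4.3.3, with Benjamini-Hochberg adjustment over all genes tested. A call needed an adjusted p-value below 0.01 with a |Log2FC| of 1 or more, and the interaction an adjusted p-value under 0.05. The SE is |Log2FC| divided by the square root of F. The scripts were tested on simulated data. CPM values used TMM factors over 13 libraries, and log2 CPM a prior count of 1. The comparisons of states share the libraries used for the comparisons of genotypes. Alternatives were DESeq2 1.42.0, its size factors, no filter, a minimum of 10 counts per library, each library left out, lines 13 and 13a summed, other thresholds, a replicate block and a joint fit.

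The members, the pathway lists and the marker lists were chosen with earlier results of these data known. Named genes are the 10 members, the 4 most abundant genes of each pathway list, 8 fixed ligands, receptors and regulators, the 3 genes most like each member, and Prkd3. Sema4d, Pdgfrb, Trem2, Btk, Pirb, Irf8, Nfatc2, Mef2c, Adam8 and Tek were named after their calls were seen. The WT clone numbers pair primary and immortalized libraries because the paper gives the same embryo for the same number, although the correlation of paired deviations was only −0.04 to 0.02. The number of a Prkd3-/- library gave correlations of −0.28 to 0.14.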

Additional observations from a re-analysis of the deposited data

Results flagged for a closer look

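The level of Atp6v0d2 in Prkd3-/- line 13a, 8.06 CPM, lay far from the other 3 Prkd3-/- lines (0.148 to 0.25 CPM), and its gap to the nearest of them was a share of 0.987 of the whole range of the group. The 8 members with a count in that group were checked in this way and Atp6v0d2 was the only 1 set apart. By chance alone about 1 in 20 groups is set apart. The macrophage marker sum of line 13a, 388 CPM, was also the highest of the 4 lines, and its part in the level of Atp6v0d2 was not tested.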

How the results depend on the processing

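Counts of members called were 0 with edgeR in all 5 comparisons. DESeq2 called 6 between the WT states, 3 between the Prkd3-/- states and 1 between the genotypes of primary MEFs. At an adjusted p-value under 0.05 edgeR called 2 between the WT states (Atp6v0d2 and Tnfrsf11a) and 1 (Mmp9) between the genotypes of primary MEFs. Over all genes, 1045 of 19836 and 1233 of 20403 were under 0.05. When single libraries were dropped, the count between the WT states was 0 to 2, and 2 came without WT line 5, where 743 of all 20285 genes were called. At an adjusted p-value under 0.05 the count between the WT states was 0 without any 1 WT primary library and 4 without WT line 5. Over all genes, 287 to 298 were under 0.05 in the former fits and 2557 of 20285 in the latter. Between the genotypes of primary MEFs the count was 0 without Prkd3-/- clone 13 or any 1 WT primary library and 4 without Prkd3-/- clone 14. Over all genes, 1632 of 20507 were under 0.05 without clone 13, 119 to 148 without a WT primary library and 6565 of 20428 without clone 14. With the replicate block the count remained 0 between the states of either genotype and in the interaction, with a Log2FC of −3.68 for Mmp9 between the WT states and −3.22 for Atp6v0d2 between the Prkd3-/- states. At an adjusted p-value under 0.05 the block took the count of members between the WT states from 2 to 0 and that of all genes from 1045 to 214. Over all genes it took the calls at 0.01 from 361 to 0.

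Some Log2FC values changed sign when 1 library was left out. In primary MEFs of the 2 genotypes, Ctsk became 0.03 without Prkd3-/- clone 13 and 0.076 without clone 15, Tnfrsf11a −0.48 without clone 14 and −0.06 without WT clone 4, Nfatc1 −0.02 without clone 13 and −0.15 without clone 15, and Calcr −0.48 without clone 13. The ranges over dropped libraries were −0.43 to 0.076 for Ctsk, −0.48 to 0.31 for Tnfrsf11a, −0.15 to 0.34 for Nfatc1 and −0.48 to 1.31 for Calcr. Between the lines of the 2 genotypes, Mmp9 became 1.22 without WT line 5, Atp6v0d2 −1.18 without Prkd3-/- line 13a, and Nfatc1 0.17 without WT line 3. The ranges were −2.14 to 1.22 for Mmp9, −1.18 to 2.67 for Atp6v0d2 and −0.92 to 0.17 for Nfatc1. The cause was not tested. By Spearman's rho, the 3 genes most like Dcstamp were the same, Ocstamp and Mmp9 kept 2 of 3, Acp5 and Calcr kept 1, and the other 5 kept 0. Calcr, Dcstamp and Ocstamp, with 36 counts or less, 54 or less and 53 or less per library, are limited by depth.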
